A study of Mus musculus with 12 samples.

Results

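The genes described here are 14 protein-coding mouse genes whose symbol ends in Rik and whose transcripts were near absent from the testis until postnatal day (PND) 17 and present at PND 21. Rik symbols are placeholders that RIKEN gave to cloned cDNAs of unknown function. The members were chosen on measured values: under 5 CPM in each mouse at PND 7, 14 and 17 and at least 15 CPM in both PND 21 mice, where CPM is the count of a gene scaled by the total count of its mouse. Of 37675 genes listed, 1445 were protein-coding Rik genes, and 14 of these (0.969%) met the limits. The levels at PND 7 to 21 that chose the members are given below as a description, without a test. The PND 28 mice took no part in the choice.

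The study sequenced RNA of the whole testis in the first wave of spermatogenesis, in mice of the inbred strain C57BL/6NHsd. There were 10 mice, with 2 at each of 5 ages: PND 7, 14, 17, 21 and 28. Each PND 7 mouse was read under 2 barcodes, whose counts were summed, so 12 libraries gave 10 mice. The total count lay between 3994026 and 13559548 per mouse. With 0 counts, up to 3 counts remain possible from counting error alone, which is 0.221 CPM in the deepest mouse and 0.751 CPM in the shallowest. Mitochondrial genes took 15.1% to 37.3% of the counts, and their share differed between PND 21 mouse 1 (17.5%) and mouse 2 (27.6%).

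In the first wave the germ cells advance together, so that each age adds a further cell type to the testis: spermatogonia and somatic cells first, then spermatocytes, then round spermatids near PND 21 and elongating spermatids by PND 28. Round spermatids are the first haploid cells and build the acrosome, the vesicle that later opens at the egg. Elongating spermatids pack their DNA with transition proteins and protamines and build the tail. In whole testis, more cells of a type and more RNA per cell cannot be told apart, and this applies to each value below.

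A library stood apart from its age. PND 14 mouse 1 held 426 CPM summed over 14 late spermatid genes (transition proteins, protamines and tail genes), beside 20.9 CPM in PND 14 mouse 2 and 25.5 and 26.0 CPM at PND 17. All 14 genes of that list were higher in PND 14 mouse 1 than in mouse 2. Prm1, a protamine, measured 61.4 CPM there against 1.12 in mouse 2. The spermatocyte list did not share this, with 3271 CPM in mouse 1 and 4503 in mouse 2. Without PND 14 mouse 1, the limits were met by 19 Rik genes. All 14 members were among them, since leaving out a mouse can only add genes. The 5 further genes were 1700019D03Rik, 4933402J07Rik, 1700026J04Rik, 1700061J05Rik and 4430402I18Rik, which lay between 5.64 and 9.62 CPM in PND 14 mouse 1 and between 0.697 and 2.51 CPM in mouse 2.

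The name "uncharacterized" held for part of the members only. In RefSeq, 13 of the 14 were found, 8 under a new symbol and 5 still under the Rik symbol. Those with a new symbol and a known place in sperm were 1700034O15Rik (now Llcfc1, a sperm protein needed for fusion with the egg), 1700015E13Rik (Spata46, needed for normal shaping of the sperm head) and 1700027D21Rik (Spatc1l, a protein of the head to tail junction). The others were 4930404H21Rik (Tex36, named for its expression in testis), 1700061G19Rik (Acsbg3, of the bubblegum family of acyl-CoA synthetases), 4921528O07Rik (Mroh9, of the maestro heat-like repeat family), 4930412F15Rik (Fam221b) and 4921501E09Rik (Phf8-ps). RefSeq lists this last gene as a transcribed pseudogene of Phf8, a histone demethylase gene on the X chromosome, while the annotation of the counts lists it as protein-coding. The genes 1700013F07Rik, 1700003H04Rik, 1700017N19Rik, 1700093K21Rik and 1700001L19Rik had no other symbol, and 4921513D11Rik was not matched.

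The members lay on 9 chromosomes and none on the X, which held 4.16% of all protein-coding genes. At that share, 14 genes may well include none. Of 43 protein-coding genes of other names within the same limits, 1 was on the X. Of Rik genes on at PND 14 it was 0 of 40, and of those on at PND 28 it was 4 of 42. In mm9 coordinates, 1700034O15Rik (ENSMUSG00000029867) was at chromosome 6, 41634430 to 41635716, 1700015E13Rik (ENSMUSG00000042800) at chromosome 1, 172238992 to 172242258, 1700027D21Rik (ENSMUSG00000009115) at chromosome 10, 76025017 to 76032946, and 4930404H21Rik (ENSMUSG00000030976) at chromosome 7, 140778707 to 140793798. 1700061G19Rik (ENSMUSG00000024209) and 4921501E09Rik (ENSMUSG00000023350) were on chromosome 17, at 57014900 to 57028327 and 33201088 to 33205003, and so was 4921513D11Rik (ENSMUSG00000066944), at 80026017 to 80028021. 4921528O07Rik (ENSMUSG00000071890) lay on chromosome 1, 164954433 to 165015801, and 4930412F15Rik (ENSMUSG00000043633) on chromosome 4, 43672494 to 43682017. On chromosome 3 were 1700013F07Rik (ENSMUSG00000027886), 108337068 to 108347641, and 1700003H04Rik (ENSMUSG00000039174), 124259270 to 124284009. The remaining members were 1700017N19Rik (ENSMUSG00000056912) at chromosome 10, 100055020 to 100081025, 1700093K21Rik (ENSMUSG00000020286) at chromosome 11, 23416203 to 23421155, and 1700001L19Rik (ENSMUSG00000021534) at chromosome 13, 68736316 to 68753108.

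Their median exon length was 1571 bases against 2736 for all protein-coding genes, and the median of their longest coding sequence was 845 bases against 1116. The longest coding sequence ran from 109 codons in 1700034O15Rik to 909 in 4921501E09Rik, the only member with a single exon. The number of exons reached 22 in 4921528O07Rik and 19 in 1700061G19Rik. The 43 protein-coding genes of other names within the same limits had a median coding length of 1227 bases. Other Rik genes had similar or shorter coding sequences, a median of 862.5 bases for 40 Rik genes on at PND 14 and 640.5 bases for 42 Rik genes on at PND 28. The median exon length was 1106.5 bases in the latter and 1968 bases over all protein-coding Rik genes.

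Since the members appeared at the same age, the RefSeq promoter windows (GRCm38.p6, 250 bases before to 50 after each start) are shown for 6 of them, picked for their motif matches. The windows of 1700013F07Rik and 1700027D21Rik and windows 2 and 3 of 1700093K21Rik held no match to the motifs searched. Capitals mark every match, on either strand, to the X-box motif of RFX factors, the cAMP response element in a short and a relaxed form, the MYB and SOX motifs and the TATA box, all spelled out after the sequences. The sequences run 5′ to 3′ on the strand of the gene.
1700015E13Rik, chr1:170308569-170308868, plus strand: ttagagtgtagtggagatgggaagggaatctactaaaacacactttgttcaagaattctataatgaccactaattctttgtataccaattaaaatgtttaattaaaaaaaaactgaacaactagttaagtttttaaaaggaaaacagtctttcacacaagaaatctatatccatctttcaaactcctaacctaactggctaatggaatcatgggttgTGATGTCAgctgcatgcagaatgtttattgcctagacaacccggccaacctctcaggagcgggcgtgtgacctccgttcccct
1700003H04Rik, chr3:124581042-124581341, minus strand: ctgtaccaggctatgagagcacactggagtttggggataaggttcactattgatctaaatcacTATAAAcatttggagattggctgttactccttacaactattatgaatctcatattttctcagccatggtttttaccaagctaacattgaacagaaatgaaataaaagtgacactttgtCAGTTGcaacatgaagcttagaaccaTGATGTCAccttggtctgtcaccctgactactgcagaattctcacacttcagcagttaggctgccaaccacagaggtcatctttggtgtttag
1700017N19Rik, chr10:100592136-100592435, plus strand: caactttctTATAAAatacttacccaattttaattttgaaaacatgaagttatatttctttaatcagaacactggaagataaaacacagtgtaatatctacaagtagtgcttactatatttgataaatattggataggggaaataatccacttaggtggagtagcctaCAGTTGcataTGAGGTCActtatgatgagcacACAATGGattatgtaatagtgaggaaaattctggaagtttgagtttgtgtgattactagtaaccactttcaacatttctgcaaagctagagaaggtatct
1700061G19Rik, chr17:56875234-56875533, plus strand: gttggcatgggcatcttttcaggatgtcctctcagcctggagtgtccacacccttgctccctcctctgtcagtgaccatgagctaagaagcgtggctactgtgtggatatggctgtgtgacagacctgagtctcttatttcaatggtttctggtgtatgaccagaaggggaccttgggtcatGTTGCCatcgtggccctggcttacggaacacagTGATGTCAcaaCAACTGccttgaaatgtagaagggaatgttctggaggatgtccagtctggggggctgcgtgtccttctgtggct
4930412F15Rik, chr4:43668810-43669109, minus strand: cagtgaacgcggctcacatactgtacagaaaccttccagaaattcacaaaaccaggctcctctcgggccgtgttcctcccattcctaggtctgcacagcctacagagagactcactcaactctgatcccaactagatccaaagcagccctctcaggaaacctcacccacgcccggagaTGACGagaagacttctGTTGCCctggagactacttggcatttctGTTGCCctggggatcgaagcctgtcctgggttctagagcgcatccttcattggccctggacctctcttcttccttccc
1700001L19Rik, chr13:68597189-68597488, plus strand: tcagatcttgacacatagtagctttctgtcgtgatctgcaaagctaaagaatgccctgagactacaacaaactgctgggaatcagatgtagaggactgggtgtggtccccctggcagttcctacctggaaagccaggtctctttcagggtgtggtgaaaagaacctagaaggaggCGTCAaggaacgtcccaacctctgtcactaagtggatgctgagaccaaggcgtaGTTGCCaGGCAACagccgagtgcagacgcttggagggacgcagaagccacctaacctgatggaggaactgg

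Windows were found for 12 members, with 14 windows in all because 1700093K21Rik had 3. The X-box motif GTTGCC was in 5 of the 14 windows, and in 12.6% of the 21263 windows of all protein-coding genes. In 1700001L19Rik it stood on both strands, 21 and 14 bases before the start, and in 4930412F15Rik it stood at 56 and 28 bases before it. 1700061G19Rik held it 68 bases before the start, and 4921528O07Rik and 4930404H21Rik, whose windows are not shown, each held it 19 bases before.

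The full cAMP response element TGACGTCA, the site of the spermatid factor CREM, was in 0 of the 14 windows and in 2.23% of all windows. Its one-sided core TGACG was in 3 windows, beside 23.6% of all. The relaxed form TGANGTCA, with N for any base, which was searched after the windows had been read, was in 5 windows and in 8.75% of all. It began 33 bases before the start in 1700015E13Rik, 35 in 1700061G19Rik, 43 in 1700003H04Rik, 72 in 1700017N19Rik and 58 in the first window of 1700093K21Rik. The MYB motif CAACTG was in 4 windows and in 12.5% of all. The TATA box, searched as TATAAA, was in 3 windows (12.6% of all), and the SOX motif ACAATGG in 2 (2.92% of all). The MYB match of 4921528O07Rik overlapped its X-box match. The member windows held few CpG dinucleotides, with a median of 3 against 13 for all windows. At most 5 CpG were in 9 of the 14 windows (64.3%) and in 32.3% of all windows. These matches are letters in a window and were not measured as bound sites.

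Among the members with a known place in sperm, 1700034O15Rik (Llcfc1) measured 0 CPM in both PND 7 mice, 2.82 and 0.279 CPM at PND 14, 0.516 and 0.501 at PND 17, 16.7 and 18.6 at PND 21 and 116 and 94.0 at PND 28. 1700015E13Rik (Spata46) was at 0 in both PND 7 mice, at 2.31 and 0.140 CPM at PND 14, at 0.369 and 0.250 at PND 17, at 22.2 and 17.7 at PND 21 and at 93.2 and 81.5 at PND 28. For 1700027D21Rik (Spatc1l) the levels were 0.104 and 0.142 CPM, then 3.34 and 0.558, 0.369 and 0.501, 33.1 and 21.7, and 139 and 113 CPM. In all 3 genes both PND 28 mice were above both PND 21 mice, and PND 14 mouse 1 was above PND 14 mouse 2 and both PND 17 mice. From PND 21 to PND 28 1700034O15Rik rose by 2.78 ± 0.47 on the log2 scale (SE, n = 2 mice per age, adjusted p = 0.00594, edgeR). The rise was 2.36 ± 0.48 for 1700015E13Rik (adjusted p = 0.0143, edgeR) and 2.44 ± 0.41 for 1700027D21Rik (adjusted p = 0.00429, edgeR).

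4930404H21Rik (Tex36) had 0 CPM in both PND 7 mice, 4.23 and 0.279 CPM at PND 14, 0.443 and 0.250 at PND 17, 29.9 and 25.2 at PND 21 and 126 and 123 at PND 28. 1700061G19Rik (Acsbg3) gave 0.621 and 0 CPM at PND 7, 3.85 and 0.418 at PND 14, 0.664 and 1.25 at PND 17, 29.9 and 27.7 at PND 21 and 174 and 143 at PND 28. The mice of PND 21 and PND 28 did not overlap in either gene. On the log2 scale 4930404H21Rik rose by 2.40 ± 0.52 (SE, n = 2 mice per age, adjusted p = 0.0197, edgeR) and 1700061G19Rik by 2.68 ± 0.53 (adjusted p = 0.00980, edgeR). The nearest gene to 1700061G19Rik, at 1030 bases on the opposite strand, was Acsbg2, another bubblegum acyl-CoA synthetase. Acsbg2 had 0 counts at PND 7, 6.93 and 0.418 CPM at PND 14, 0.369 and 0 at PND 17, 19.4 and 12.6 at PND 21 and 138 and 169 at PND 28, and its log2 rise from PND 21 to 28 was 3.51 ± 0.66 (SE, adjusted p = 0.00975, edgeR). It missed the limits of the members in PND 14 mouse 1 and in PND 21 mouse 2.

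4921528O07Rik (Mroh9) was at 0 CPM in both PND 7 mice, at 2.18 and 0 CPM at PND 14, at 0.221 and 0.250 at PND 17, at 23.6 and 22.6 at PND 21 and at 86.0 and 89.1 at PND 28. 4930412F15Rik (Fam221b) had 1.14 and 0 CPM at PND 7, 2.69 and 2.37 at PND 14, 1.77 and 2.0 at PND 17, 21.2 and 17.4 at PND 21 and 123 in both PND 28 mice. 4921501E09Rik (Phf8-ps) had 0 CPM in both PND 7 mice, 1.03 and 0 at PND 14, 0.369 and 0.250 at PND 17, 30.6 and 23.9 at PND 21 and 83.2 and 69.5 at PND 28. All 3 genes were higher in each PND 28 mouse than in each PND 21 mouse, and of the 3 only 4930412F15Rik had similar levels in both PND 14 mice. The log2 rise from PND 21 to PND 28 was 2.14 ± 0.54 for 4921528O07Rik (SE, n = 2 mice per age, adjusted p = 0.0373, edgeR), 2.91 ± 0.42 for 4930412F15Rik (adjusted p = 0.00253, edgeR) and 1.72 ± 0.43 for 4921501E09Rik (adjusted p = 0.0380, edgeR). Reads that match both 4921501E09Rik and Phf8 cannot be assigned by unique alignment, so the level of this member is uncertain. Phf8 ran the other way in level, with 130 and 134 CPM at PND 7 and 21.1 and 32.6 CPM at PND 28. Its log2 change from PND 21 to PND 28 was -0.84 ± 0.44 (SE, adjusted p = 0.277, edgeR).

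Of the members still under a Rik symbol, 1700013F07Rik had 0 CPM in both PND 7 mice, 2.69 and 0.837 CPM at PND 14, 0.369 and 1.00 at PND 17, 16.9 and 18.5 at PND 21 and 153 and 123 at PND 28. 1700017N19Rik had 0 CPM in both PND 7 mice, 3.85 and 2.09 at PND 14, 2.06 and 2.75 at PND 17, 23.1 and 23.4 at PND 21 and 124 and 121 at PND 28. 1700001L19Rik gave 0.207 and 0 CPM at PND 7, 3.08 and 1.53 at PND 14, 1.11 and 1.75 at PND 17, 26.4 and 16.7 at PND 21 and 94.6 and 78 at PND 28. The levels of PND 28 and PND 21 did not overlap in these 3 genes, and 1700017N19Rik had the closest pair of PND 21 mice among the members. The log2 rise to PND 28 was 3.17 ± 0.38 for 1700013F07Rik (SE, n = 2 mice per age, adjusted p = 0.00141, edgeR), 2.61 ± 0.28 for 1700017N19Rik (adjusted p = 0.000916, edgeR) and 2.25 ± 0.35 for 1700001L19Rik (adjusted p = 0.00340, edgeR).

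1700093K21Rik and 4921513D11Rik had the most counts of the members at PND 7, also per exon length. 1700093K21Rik measured 0.414 and 3.69 CPM at PND 7, 3.72 and 0.279 at PND 14, 0.590 and 1.5 at PND 17, 18.4 and 15.6 at PND 21 and 158 and 169 at PND 28. 4921513D11Rik measured 3.11 and 0.142 CPM at PND 7, 4.49 and 0.837 at PND 14, 1.55 and 2.25 at PND 17, 19.9 and 18.2 at PND 21 and 101 and 82.9 at PND 28. In each of them a single PND 7 mouse carried nearly all of the PND 7 counts. The log2 rise from PND 21 to PND 28 was 3.49 ± 0.67 for 1700093K21Rik (SE, n = 2 mice per age, adjusted p = 0.00879, edgeR), the largest of the 14, and 2.50 ± 0.64 for 4921513D11Rik (adjusted p = 0.0358, edgeR).

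1700003H04Rik followed another course before PND 21. It had 0 CPM in both PND 7 mice, 0.770 and 1.81 CPM at PND 14, 2.88 and 2.50 at PND 17, 15.7 and 25.2 at PND 21 and 43.8 and 54.7 at PND 28. Both PND 17 mice were above both PND 14 mice, and PND 14 mouse 1 was the lower mouse of its age, as in no other member. Its log2 difference from PND 21 to PND 28 was 1.46 ± 0.40 (SE, n = 2 mice per age), the smallest of the members, and it missed the threshold (adjusted p = 0.0517, edgeR). Under the alternatives its adjusted p lay between 0.00424 and 0.253.

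**Figure D1:**
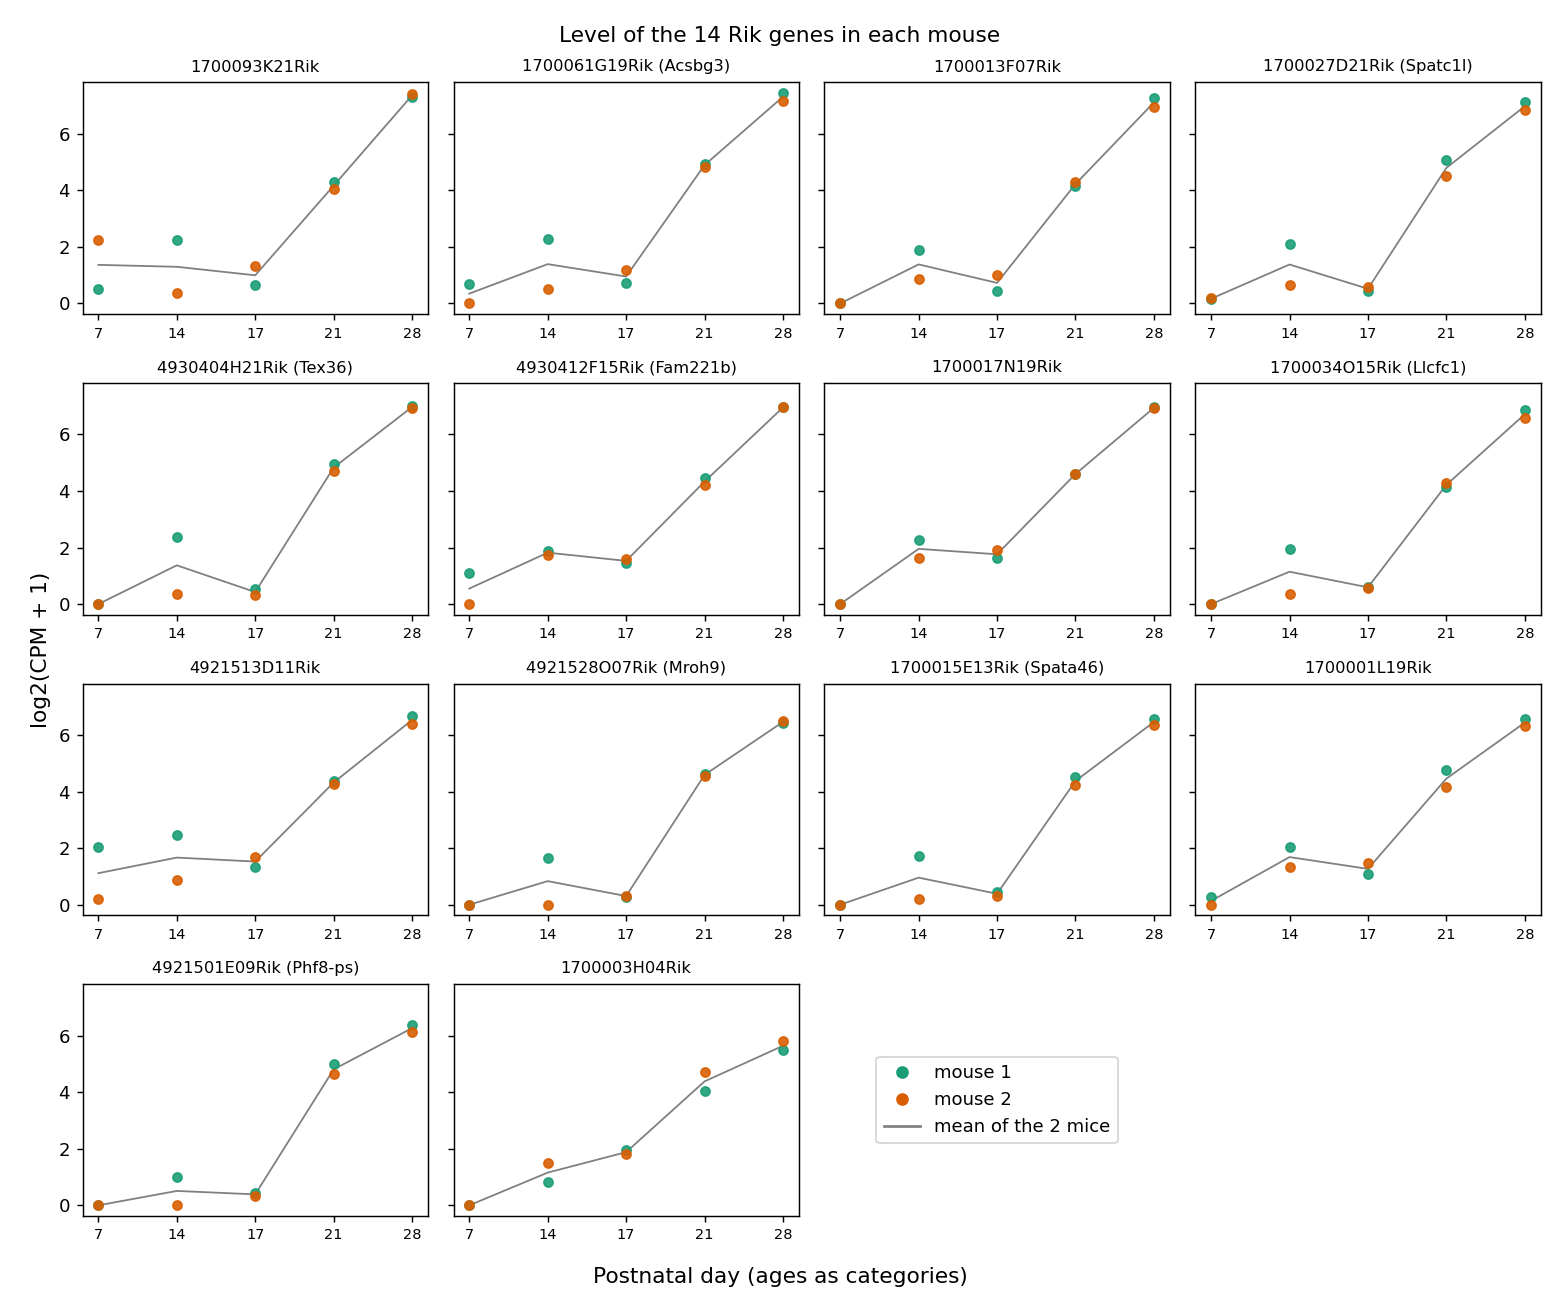
Level of each of the 14 Rik genes as log2(CPM + 1) (vertical axis) at each age in postnatal days (horizontal axis, ages as categories), with a point for each mouse and a line through the mean of the 2 mice. Every member lay above 15 CPM in both PND 21 mice, which the choice of the members fixed, and higher still in both PND 28 mice. PND 14 mouse 1 stood above mouse 2 in 13 of 14 panels.

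The comparison of PND 28 with PND 21 asked how the members changed in whole testis between these ages. Round spermatids appear near the first, and elongating spermatids are present by the second. A gene was called at an adjusted p under 0.05 (edgeR's quasi-likelihood test, Benjamini-Hochberg over 16860 genes) and a fold change of at least 2. By this test 13 of the 14 members were higher at PND 28 and 0 were lower, where 7.37% of all genes tested were called higher and 0.297% lower. All 14 members passed the filter on low counts, and the PND 21 mice of this comparison had also served in choosing the members. The median change of the members was 2.47 on the log2 scale, or 5.54-fold, and the median of all genes tested was 0.03. By CPM, both PND 28 mice were above both PND 21 mice in 14 of 14 members and in 25.6% of all genes tested. All 14 members were at or above 15 CPM in both PND 28 mice, as were 33% of all protein-coding genes.

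The number of members called depended on single mice, although no direction changed. Without PND 21 mouse 1 or mouse 2, 5 and 3 members were called, and without PND 28 mouse 1 or mouse 2, 3 and 6. The median log2 change of the members was then 2.51, 2.45, 2.34 and 2.61 in that order, beside 2.47 with all mice, and the calls over all genes fell from 1292 to 459, 312, 463 and 579. Without PND 14 mouse 1, the library that stood apart, the median log2 change of the members was 2.47. Leaving out PND 14 mouse 2 instead gave 2.48. 1700013F07Rik, 1700017N19Rik and 4930412F15Rik were called in each of the 19 alternative settings tried. The call was lost in 9 of them for 4921528O07Rik (adjusted p up to 0.395), in 8 for 4921513D11Rik (up to 0.233) and in 7 for 4921501E09Rik (up to 0.283). DESeq2 called 10 members higher, with 4921528O07Rik, 4930404H21Rik, 1700061G19Rik and 4921513D11Rik not called. Scaling by library totals in place of TMM moved the median of all genes by -0.22 and left 9 members called, without 4921528O07Rik, 4930404H21Rik, 4921501E09Rik and 4921513D11Rik.

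Other groups of genes are given for comparison. Of the 43 other protein-coding genes within the same limits (0.205% of 20935), 32 were called higher at PND 28 and 0 lower, with a median log2 change of 2.24. These included Spaca3, a lysozyme-like acrosome protein, Spam1, the sperm hyaluronidase, and Efcab9, a subunit of the CatSper calcium channel. Of 40 Rik genes already at 15 CPM or more in both PND 14 mice, 7 were called higher, with a median of 0.70. Of 42 Rik genes that stayed under 5 CPM until PND 21 and reached 15 CPM in both PND 28 mice, 42 were called higher, with a median of 5.12, a contrast that chose those 42 genes. Differences between these sets were not tested.

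**Figure D2:**
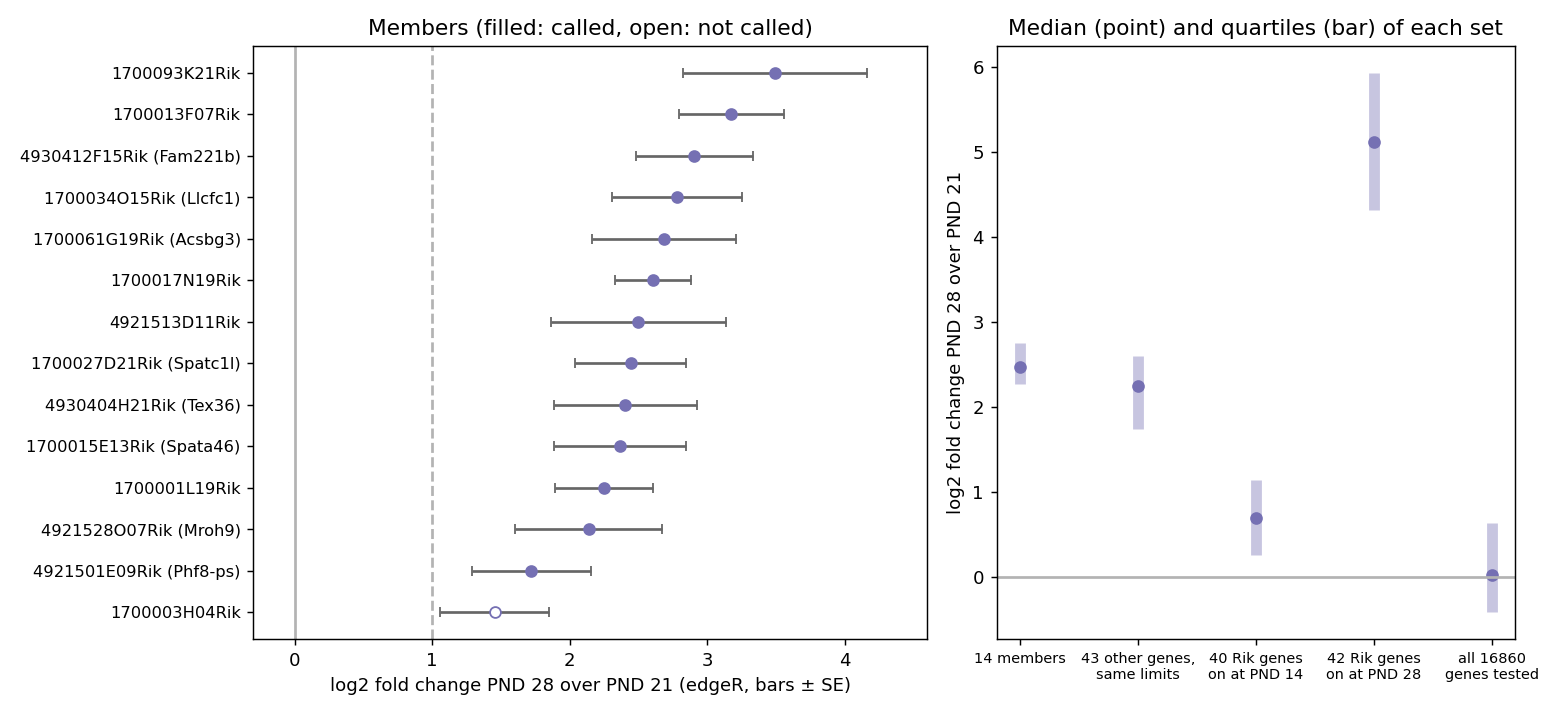
Left, log2 fold change of PND 28 over PND 21 for each of the 14 members with its standard error, filled where edgeR called the gene and open where it did not. The dashed line marks a 2-fold change, and the members lay between 1.46 and 3.49. Right, median (point) and quartiles (bar) of the same quantity for the members, 3 other groups of genes and all 16860 genes tested, with medians of 2.47, 2.24, 0.70, 5.12 and 0.03 from left to right.

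Levels are compared between members on the deposited RPKM, which divides the count by the exon length and the reads of the library. At PND 28 the mean was highest for 1700034O15Rik (Llcfc1) with 143.5 RPKM, from 158 and 129 RPKM in the 2 mice. 4930404H21Rik (Tex36) followed with 138 RPKM (140 and 137) and 1700015E13Rik (Spata46) with 124 RPKM (132 and 116). The ranges of the first and the second of these overlapped, so that their order was not separated by the mice. 1700013F07Rik had 96.5 RPKM and 1700027D21Rik (Spatc1l) 95.8 RPKM, and their ranges overlapped as well. At the other end were 4921501E09Rik (Phf8-ps) with 19.8 RPKM, from 21.6 and 18.1, and 4930412F15Rik (Fam221b) with 28.4 RPKM, from 28.3 and 28.4.

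At PND 21 the mean RPKM ran from 4.44 in 4930412F15Rik to 30.6 in 4930404H21Rik. The order of the members changed in part between the ages. By mean RPKM, 4930404H21Rik, 1700015E13Rik and 1700034O15Rik were the highest at both ages. 4930412F15Rik stayed near the low end, with 4.44 RPKM at PND 21 and 28.4 at PND 28, although its CPM was 6.40 times higher. 1700093K21Rik moved up, from 8.63 RPKM at PND 21 to 82.8 at PND 28, a CPM ratio of 9.62. 1700003H04Rik was among the higher members at PND 21, with 20 RPKM, and reached 48.1 RPKM at PND 28, a CPM ratio of 2.41.

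**Figure D3:**
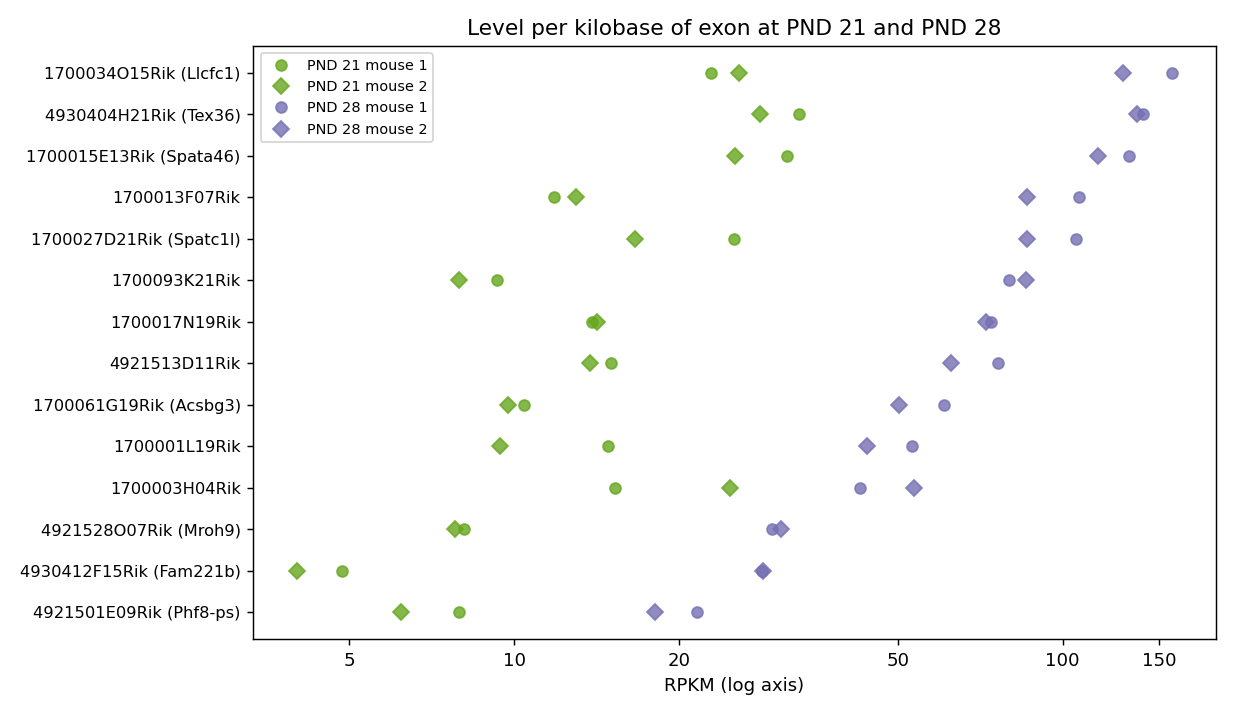
RPKM on a log axis (horizontal) for the 14 members (vertical, ordered by their mean at PND 28) in the 2 mice of PND 21 (green) and of PND 28 (purple). In every member both PND 28 mice lay to the right of both PND 21 mice, and the PND 28 means spanned 19.8 to 143.5 RPKM.

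From PND 17 to PND 21 the mean CPM of the members differed by between 7.59 times (1700003H04Rik) and 98.1 times (4921528O07Rik), higher at PND 21 in each. The limits of the choice set this range in part. The highest ratio rests on 3 and 1 counts at PND 17 (0.221 and 0.250 CPM), which do not exceed the counting floor. The fitted log2 change from PND 17 to PND 21 was 3.03 to 6.67, in the same genes, and 9.29% of all genes tested were called higher at PND 21. Summed over the 14 genes, the level was 5.59 and 3.98 CPM at PND 7, 41.0 and 11.4 at PND 14, 13.3 and 17.0 at PND 17, 328 and 292 at PND 21 and 1615 and 1464 at PND 28. The counts behind the sums were 54 and 28 at PND 7 and 14258 and 7543 at PND 28. In 8 members both PND 7 mice had 0 counts.

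The residual level before PND 21 was uneven between mice. In PND 14 mouse 1 the members stood at a median of 2.57% of their PND 28 mean (range 1.34% to 4.87%). The median was 0.355% in PND 14 mouse 2, and 0.452% and 0.757% in the PND 17 mice. In 13 of 14 members PND 14 mouse 1 was above mouse 2 and above both PND 17 mice, where 59.8% of all genes tested were above mouse 2 and 51.2% above both PND 17 mice. It was above mouse 2 in 42 of the 43 other genes within the limits and 41 of 42 Rik genes on at PND 28. Of 40 Rik genes on at PND 14, this held for 2. In these 3 sets, PND 14 mouse 1 was above both PND 17 mice in 34, 40 and 1 genes. The late spermatid genes in the same mouse stood at 4.51% of their PND 28 sum. Of 13 acrosome genes, 8 were higher in PND 14 mouse 1 than in mouse 2 and 7 were above both PND 17 mice, among them Acrv1 (7.18 against 1.12 CPM in mouse 2), Spaca3 (3.08 against 0.418) and Spaca7 (2.95 against 0.279). The sum of that list was lower in mouse 1 (227 CPM) than in mouse 2 (326 CPM), with Zpbp, Dkkl1, Dpy19l2 and Spata16 as its most abundant genes at PND 14. Whether a share of late germ cell RNA in that library carries these values was not tested.

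**Figure D4:**
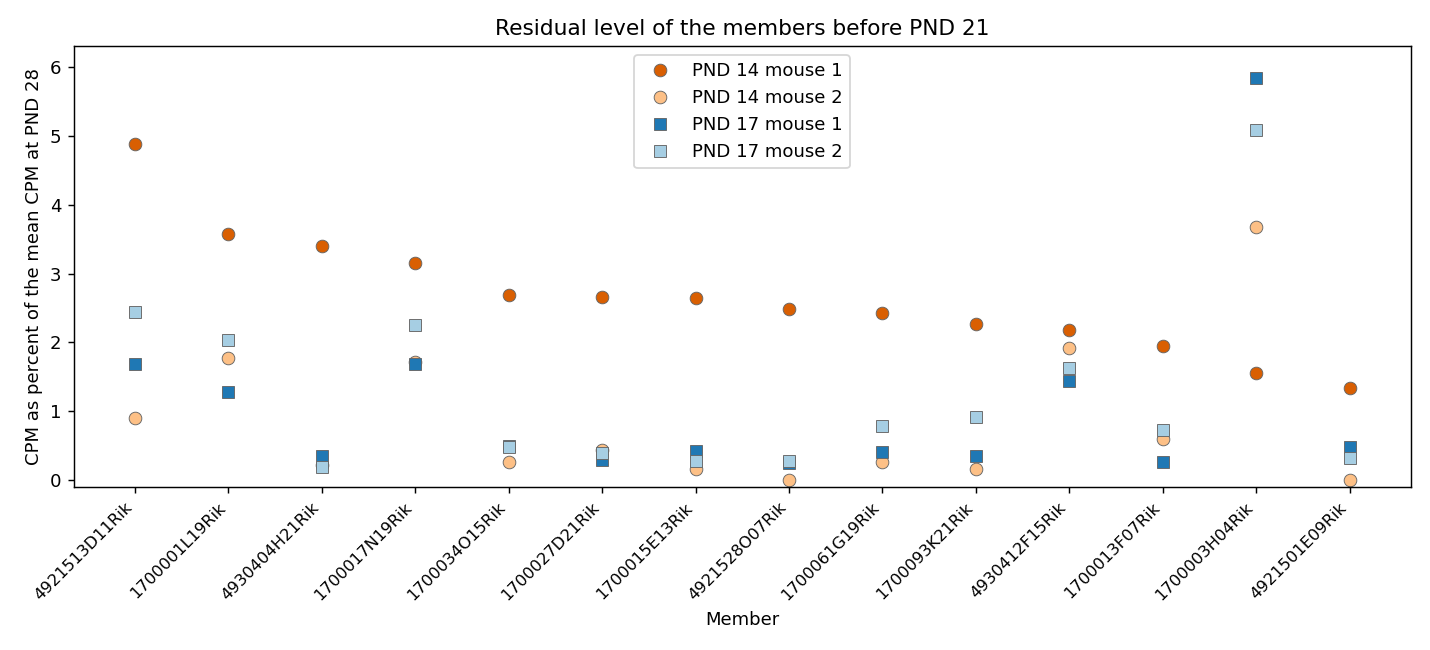
CPM of each member in the 2 PND 14 mice (circles) and the 2 PND 17 mice (squares) as a percent of the member's mean at PND 28, with members ordered by PND 14 mouse 1. PND 14 mouse 1 was the highest of the 4 in 13 members and 1700003H04Rik was the exception, with its highest value of 5.84% in PND 17 mouse 1.

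The deposited number of exons with more than 10 reads showed how far the gene bodies were covered. Of the 109 exons of the 14 members, 7 passed in PND 14 mouse 1, 0 in PND 14 mouse 2, and 4 and 0 at PND 17. At PND 21 the number was 40 and 55, and at PND 28 it was 101 and 94. Each member had at least 1 such exon in each PND 21 mouse, and all exons passed for 5 members in either mouse. At PND 28 all exons passed for 9 members in either mouse. 4921528O07Rik, with 22 exons, had 2 and 3 exons over 10 reads at PND 21 and 19 and 13 at PND 28. These numbers follow the depth of the library as well as the level of the gene.

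The limits of the choice cut through a continuous range. Just inside the limit of 5 CPM were 4921513D11Rik, 4930404H21Rik and 1700017N19Rik, whose highest early values were 4.49, 4.23 and 3.85 CPM, each in PND 14 mouse 1. Just outside it were 4930590J08Rik with 5.13 CPM, 4930579J09Rik with 5.53 CPM and 4430402I18Rik with 5.64 CPM. At the limit of 15 CPM, the lower PND 21 mouse of 1700093K21Rik, 1700003H04Rik and 1700034O15Rik had 15.6, 15.7 and 16.7 CPM. The genes 1700113H08Rik, 4930443G12Rik and 4930511I11Rik fell short of it with 14.6, 14.6 and 14.4 CPM.

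Over the 10 mice the members ran closely together, as the choice required of them in 8 of the mice. Pearson's r of log2(CPM + 1) between members lay between 0.875 and 0.999 over 91 pairs, with a median of 0.979. The genes outside the group with the highest r to the members' mean profile were Atp6v1e2 (0.998), a testis form of a proton pump subunit, Amac1 (0.997), now Slc35g3, 4930415O20Rik (0.997), Spaca3 (0.997), Efcab9 (0.997), Fam170b (0.997), Triml1 (0.996), 1700123K08Rik (0.996), Gstt4 (0.996) and 1700007K09Rik (0.996), now Fam24b. Spaca3, Efcab9, Fam170b and Gstt4 were within the limits of the members and the other 6 were not. Members themselves lay between 0.955 (1700003H04Rik) and 0.998 (1700034O15Rik). These values share the same 10 libraries and their depths, and they carry no test.

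Marker lists of the testis cell types gave the setting of the change from PND 21 to PND 28. Of 13 acrosome genes, 7 were called higher and 0 lower, namely Acrv1, Spaca1, Spaca3, Spaca4, Spaca7, Izumo1 and Spam1, with log2 rises of 2.05 to 3.44. Acr, the protease acrosin, Zpbp, Zpbp2, Dkkl1, Dpy19l2 and Spata16 were not called and were already present at PND 14, and 3 acrosome genes (Spaca3, Spaca7 and Spam1) met the limits of the members. Izumo1, the sperm protein that binds the egg, had 15.9 and 11.3 CPM at PND 21 and 83.4 and 81.2 at PND 28, a log2 rise of 2.83 ± 0.48 (SE, adjusted p = 0.00462, edgeR). Of 14 late spermatid genes 13 were called higher, with Smcp as the exception, and their median log2 change was 4.45. Tnp1 had 11.4 and 10.3 CPM at PND 21 and 1335 and 1800.1 CPM at PND 28.

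Of 12 regulators of haploid transcription, Crem, Fhl5, Rfx3 and Sox5 were called higher and none lower. Crem had 145 and 171 CPM at PND 21 and 379 and 315 at PND 28, and its partner Fhl5 had 11.2 and 8.76 CPM and then 160 and 245 CPM. Rfx2, a regulator of spermatid genes, had 167 and 75.2 CPM at PND 21 and 139 and 109 at PND 28 and was not called. Of 19 tested genes of the sperm axoneme 4 were called higher (Tekt2, Tekt4, Tekt5 and Ropn1), and of 15 spermatocyte genes 1 (Pgk2).

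Of the remaining lists only that of Leydig cells had called genes. No gene was called among 11 of spermatogonia, 7 of Sertoli cells, 5 of peritubular myoid cells or 8 of macrophages, endothelium and blood. Over all genes tested, 7.37% were called higher and only 0.297% lower. The median log2 changes of these lists were -0.39, -0.47, -0.32 and -0.24 in that order, so the absence of calls does not show unchanged levels. The Sertoli list summed to 349 and 423 CPM in the mice of PND 21 and to 213 and 237 CPM in those of PND 28. Of 8 Leydig genes 3 were called higher, namely Cyp11a1, Cyp17a1 and Insl3, and the list summed to 215 and 463 CPM at PND 21 and to 1040 and 789 CPM at PND 28. The part of the cell makeup in the rise of the members was not tested.

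**Figure D5:**
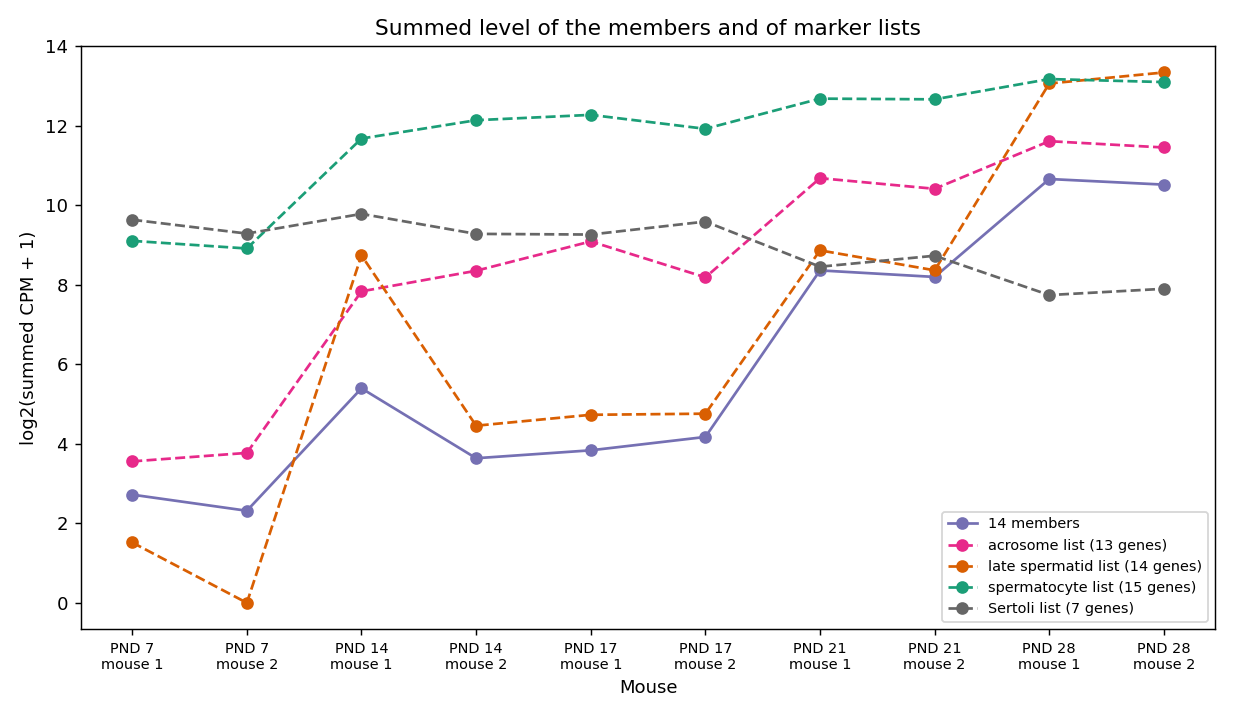
Summed level as log2(summed CPM + 1) (vertical axis) in each of the 10 mice (horizontal axis) for the 14 members (solid line) and for the acrosome, late spermatid, spermatocyte and Sertoli lists (dashed lines). The members summed to 328 and 292 CPM at PND 21 and to 1615 and 1464 CPM at PND 28, and PND 14 mouse 1 stood out in the late spermatid list with 426 CPM.

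Some members overlap other genes, and the sources do not state whether strand was used in counting. 4930412F15Rik shares 175 exon bases with Tmem8b and 379 with the pseudogene Gm12481, both on the opposite strand. These had 28.8 and 9.40 CPM at PND 28, beside 123 CPM for the member. 1700027D21Rik shares 135 exon bases with Gm15343, which had 2.48 CPM at PND 28. 1700015E13Rik lies across Nos1ap (0.307 CPM at PND 28), 1700013F07Rik overlaps 5330417C22Rik (273 CPM) and 4921513D11Rik lies within Fam82a1 (74.6 CPM), in each case with 0 shared exon bases. Fam82a1 was the one of these on the same strand as its member. It rose from 33.3 and 29.6 CPM at PND 21 to 76.3 and 72.8 at PND 28 by 1.47 ± 0.22 on the log2 scale (SE, adjusted p = 0.00258, edgeR), against 2.50 for 4921513D11Rik.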

How the data were processed

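After removal of ribosomal RNA, the authors read the testis RNA on the SOLiD 4 at a length of 50 bp. They aligned the reads to mm9 with LifeScope 2.1, removed those with more than 10 alignments and counted uniquely aligned reads on Ensembl genes. The deposited values are the raw count, the RPKM and the number of exons with more than 10 reads per gene, and no read was processed again. Whether counting used strand is not given in the sources used here. The 37310 genes found in GENCODE M1 all had its coordinates, and the other listed genes had 0 counts.

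Counts of all 10 mice were fitted with edgeR 4.0.16 (TMM, filterByExpr, quasi-likelihood test) in R 4.3.3. A call needed a Benjamini-Hochberg adjusted p under 0.05 over all genes tested and at least a 2-fold change. Standard errors are the log2 fold change divided by the square root of F. P-values measure the spread between mice, shared across genes, and 2 mice against 2 allow no exact test under 0.05. Other fits used DESeq2 1.42.0 and, on log2(RPKM + 1), limma 3.58.1.

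All members are named, with values by mouse. The 10 genes of most similar profile were taken by Pearson's r, and 3 genes on each side of each limit. The members and gene lists were chosen with earlier results of these data known. Promoter windows came from RefSeq (GRCm38.p6), matched by gene ID or symbol. Of the marker genes, Dnah1, Dnah8 and Rhox5 were not found. Same-numbered mice of different ages are different animals and their deviations correlated between -0.127 and 0.315, so the numbers were not taken to pair mice.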

Additional observations from a re-analysis of the deposited data

How the results depend on the processing

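The count of 13 members called higher at PND 28 became 14 with RLE factors, without a filter on low counts and with PND 7 barcodes apart. It was also 14 with only the 4 mice of the 2 ages. With limma on log2(RPKM + 1) it was 14 at the limits of the study, on unadjusted p. There the adjusted p (limma) was above 0.05 for 1700015E13Rik (0.0632), 1700003H04Rik (0.0504), 4930404H21Rik (0.0888) and 4921513D11Rik (0.0896). The count was 13 without small structural RNAs and mitochondrial genes, 13 without a fold criterion, 10 with DESeq2 and 9 with library totals. With each mouse left out in turn it lay between 3 and 14, and fewer mice in the fit were part of each such setting. With the mouse number as a replicate block it was 13 as well, with 4921528O07Rik lost and 1700003H04Rik gained. No other member changed its call. The calls over all genes, 1292, became 1970 without a filter, 1123 with the replicate block and 845 with limma at its own limits.

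The number of members depended on the limits. It was 34 with a lower limit of 10 CPM at PND 21, 6 with 20 CPM, 7 with an upper limit of 3 CPM before PND 21 and 24 with 8 CPM. Without each mouse in turn it lay between 14 and 37, with 22 without PND 17 mouse 1 and 37 without PND 21 mouse 2. It was 21 on TMM scaled CPM, which kept all 14, 21 without mitochondrial genes and small structural RNAs in the total, which kept 9, and 11 on RPKM, which kept 5. The 14 members at or above 15 CPM at PND 28 were 14 under each setting tried. Of 266 results of single members under 19 settings, 205 kept their side of the threshold, 50 lost it, 11 gained it (all 1700003H04Rik) and 0 changed direction. For limma the threshold was its own, on unadjusted p. Depth limits the values before PND 21, where a member rested on few counts and 0 counts allow up to 0.751 CPM.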

Other observations

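Among the 43 other protein-coding genes within the same limits, several belong to families of the sperm surface and the acrosome. The genes named here were picked by family after their values were seen, and no list was tested. Spaca3, Lyzl1 and Lyzl6, of the lysozyme-like family, had mean levels of 20.9, 15.9 and 18.8 CPM at PND 21 and 115, 77.5 and 110 CPM at PND 28, and each was called higher by edgeR. The hyaluronidase genes Spam1 and Hyal5 rose from 24.2 to 85.3 CPM (called) and measured 20.7 and 99.7 CPM (not called, adjusted p = 0.0520, edgeR). The serine protease genes Prss39, Prss46 and Prss54 were at 35.5, 28.8 and 17.0 CPM at PND 21 and at 123, 74.8 and 94.6 CPM at PND 28, all called higher by edgeR. Ggn, a gametogenesis gene, had the smallest change of the 43, with 32.8 CPM at PND 21 and 33.7 CPM at PND 28.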
